A study of Mus musculus with 4 samples.

Results

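The genes described here are the 3 catalytic DNA methyltransferases Dnmt1, Dnmt3a and Dnmt3b, the methylation cofactor Uhrf1, and the TET dioxygenases Tet1, Tet2 and Tet3, as measured in activated mouse B cells that lacked Aff3. Members were all gene probes of the array whose annotated RefSeq transcript belongs to 1 of these 7 genes. This gave 12 of 39429 probes, for 6 of the 7 genes. No probe matched any of the 6 Tet1 transcripts in the naming table, and Tet1 was not analysed here. The samples were Aff3-/- splenic B cells (2 arrays) and Aff3+/- splenic B cells (2 arrays). CD43-negative cells were used, a selection that leaves out most T cells and plasma cells. Both genotypes were stimulated for 3 days, with 10 ug/mL LPS to engage TLR4 and 10 ng/mL IL-4 to direct class switching. The comparison asked how expression differs when Aff3, which encodes an AF4/FMR2 family protein of the nucleus, is missing. The controls carry 1 mutant Aff3 allele, so that every sample here was at least heterozygous. The labels give no age, and nothing in them ties each replicate to a mouse of its own, so p-values reflect the spread among the 4 arrays alone, which may be technical.

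DNA methylation at CpG sites is copied at each round of replication and can be set anew or removed. Dnmt1 restores methylation on the new strand, and Uhrf1, a RING finger protein, brings it there by binding hemimethylated CpG sites. Dnmt3a and Dnmt3b methylate sites that carried no mark. The TET enzymes oxidise 5-methylcytosine to 5-hydroxymethylcytosine and beyond, which leads to loss of the mark by dilution or by base excision repair. In mouse B cells, activation brings rapid division, and Tet2 and Tet3 are known to act at enhancers used in class switching.

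Dnmt1 and Uhrf1 are counted among the genes whose transcripts rise as cells enter S phase, so the promoters of all 7 genes were searched for letters of the E2F motif. The sequences are RefSeq promoter windows of GRCm38.p6, cut to the 250 bases before an annotated start. The motif was TTCCCGC, with TTCGCGC as a variant, then TTGCCGC as another and TTGGCGC as the last, on either strand, and 7.89% of 32851 windows held it. Among the 7 genes it was found in Dnmt1 (1 of 3 windows, with 2 matches) and Uhrf1 (in both windows, 1 match each), and in no window of the other 5 genes. The stretches of 30 bases around each match follow, on the strand of the gene, with the match in capitals. The Dnmt1 stretches lie on the minus strand at chr9:20952824-20952853 and chr9:20952763-20952792. Those of Uhrf1 lie on the plus strand at chr17:56303278-56303307 and chr17:56304118-56304147.
Dnmt1 first match: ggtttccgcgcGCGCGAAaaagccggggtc
Dnmt1 second match: gcaagatgccaGCGCGAAcagctccagccc
Uhrf1 first window: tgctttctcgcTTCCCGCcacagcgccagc
Uhrf1 second window: ccgagtcgggtTTCGCGCgcccaggcgtct

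For Uhrf1 the whole stretch before the first annotated start is shown as an example, on the plus strand of chr17:56303087-56303336. Capitals mark the E2F letters, a CCAAT box (in 33.8% of windows, on either strand) and a GC box (the letters GGGCGG, in 32.7%, likewise). None of the 3 matches overlaps another.
Uhrf1 upstream: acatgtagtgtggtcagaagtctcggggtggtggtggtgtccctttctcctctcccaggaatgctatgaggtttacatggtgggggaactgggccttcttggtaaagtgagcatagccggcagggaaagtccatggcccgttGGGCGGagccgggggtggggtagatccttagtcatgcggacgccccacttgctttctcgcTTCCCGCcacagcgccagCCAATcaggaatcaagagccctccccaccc
The windows also differed in CpG content, the substrate of these enzymes. The median window of all genes held 6 CpG sites. The Tet2 window held 51, the Dnmt3a windows 38, 40 and 15, the Dnmt3b window 21, the Tet3 window 17 and the Tet1 window 15. The Uhrf1 windows held 10 and 30, and the Dnmt1 windows 2, 7 and 26. A match to letters is a description of these windows and not a binding site.

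All 4 arrays were read on 1 slide, and each array had between 24942 and 25862 of 39429 probes well above background. No gene spot was saturated, and the number of arrays limits the precision. All 9 B cell marker genes fixed for this work (among them Cd79b and Ms4a1) were well above background on every array. Of 38 markers of plasma, T, NK, myeloid, dendritic, erythroid and stromal cells, 24 passed the filter on dim probes and none passed the adjusted threshold (limma). The summed signal of the T cell markers lay between 12490 and 13320 intensity units on Aff3-/- arrays and between 12710 and 13372 on Aff3+/- arrays. Within that list Thy1 had 1376 and 1497 intensity units on Aff3-/- arrays against 457 and 1009 on Aff3+/- arrays, a log2 difference of 1.09 ± 0.37 (SE) without overlap. Cd8a had 19.94 and 29.98 intensity units on Aff3-/- arrays against 8.09 and 18.5 on Aff3+/- arrays, also without overlap. It was well above background on 1 of the 2 Aff3+/- arrays. Of the 6 T cell markers tested 3 were above 0 and 3 below, with a median of -0.01. Those below were Cd3e (-0.11 ± 0.15), Lck (-0.10 ± 0.12) and Cd4 (-0.09 ± 0.12), all with overlap. For the myeloid markers the sum lay between 9243 and 10360 on Aff3-/- arrays and between 10065 and 11013 on Aff3+/- arrays. Itgam gave most of that sum. All 3 myeloid markers tested were below 0 in difference, with a median of -0.24, and each overlapped. The defining marker Lyz2 did not pass the filter, and no probe was matched to Cd68 or Ly6g. The 2 NK markers tested were also below 0, with overlap. The 4 plasma cell markers were all above 0 in difference. Their sum lay between 69171 and 71336 on Aff3-/- arrays and between 57762 and 68559 on Aff3+/- arrays, without overlap. Xbp1 and Jchain gave most of that sum. Of the 4 only Jchain (0.33 ± 0.17) did not overlap on its own, and Sdc1 was at 0.03 ± 0.40. The sum of the dendritic cell markers did not overlap either and was lower. It lay between 115242 and 123724 on Aff3-/- arrays and between 126047 and 131343 on Aff3+/- arrays. Siglech (-0.11 ± 0.12) gave most of that sum, while Zbtb46 in the same list was at 0.52 ± 0.16 (SE). The stromal and endothelial markers Acta2 (-0.36 ± 0.12) and Cdh5 (-0.61 ± 0.24) were lower without overlap. Both were dim, at 20 to 28 (Acta2) and 26 to 53 (Cdh5) intensity units. In the same list Pecam1 (-0.16 ± 0.17) and Col1a2 (0.09 ± 0.12) overlapped. The sum of that list overlapped too, between 428 and 523 on Aff3-/- arrays and between 505 and 584 on Aff3+/- arrays. All adjusted p-values among these markers were 1.00 (limma). Of the 9 B cell markers 8 were below 0 in difference, with sums that overlapped. The part of cell composition in the results below was not tested. The Aff3 transcript was not analysed here, since none of its 7 transcripts in the naming table matched a probe. The direction of every difference therefore rests on the labels.

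None of the 12 probes passed the adjusted threshold between Aff3-/- and Aff3+/- cells. Each was well above background on all 4 arrays, so that no member was lost to the filter on dim probes. Values are log2 signals relative to the 75th percentile of the array, and differences are Aff3-/- minus Aff3+/-. The count of 0 of 12 stands beside a percentage of 0% over all 25116 probes tested (limma, Benjamini-Hochberg adjusted p under 0.05). At an unadjusted p under 0.05 limma counted 0 of the 12 probes and 494 of all probes, which is 1.97%. Leaving out Aff3-/- replicate 1 gave 1136 such probes, and leaving out Aff3-/- replicate 2 gave 937. Of the 494, 41.1% were brighter in Aff3-/- cells, a share of 62.8% with normexp background correction and 53.1% with quantile normalization. The exact permutation test cannot go below p = 0.333 with 2 arrays against 2. In such bulk RNA a smaller share of expressing cells and less RNA per cell cannot be told apart.

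Dnmt1, the maintenance methyltransferase, was measured by 1 probe (A_51_P195573). Its signal was 0.60 and 0.80 on the Aff3-/- arrays and 0.60 and 0.89 on the Aff3+/- arrays. Both genotypes covered nearly the same span. The means were 0.70 ± 0.14 in Aff3-/- cells and 0.74 ± 0.20 in Aff3+/- cells (SD, n = 2 each). The difference was -0.05 ± 0.16 (SE, limma, adjusted p = 1.00), with a 95% interval from -0.47 to 0.38, or 0.724-fold to 1.30-fold.

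Uhrf1, which recruits Dnmt1 to newly replicated DNA, had 2 probes annotated to different transcripts. The brighter one (A_55_P2035286) read 3.52 and 3.86 on the Aff3-/- arrays and 3.62 and 3.83 on the Aff3+/- arrays. The Aff3+/- values lay inside the span of the Aff3-/- values. The difference was -0.04 ± 0.17 (SE, limma, adjusted p = 1.00, 95% interval -0.48 to 0.41). The dimmer probe (A_66_P120074) read -3.42 and -3.13 on the Aff3-/- arrays and -3.26 and -3.05 on the Aff3+/- arrays. Its genotypes overlapped as well, at -0.12 ± 0.16 (SE, limma, adjusted p = 1.00). Both Uhrf1 probes had their lowest reading on the same array, Aff3-/- replicate 1.

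Dnmt3a, a de novo methyltransferase, was measured by 1 probe (A_55_P2178084). It read 1.09 and 0.88 on the Aff3-/- arrays and 0.94 and 0.85 on the Aff3+/- arrays. The highest reading was that of Aff3-/- replicate 1, and the other Aff3-/- array lay between the Aff3+/- arrays. The difference was 0.09 ± 0.13 (SE, limma, adjusted p = 1.00, 95% interval -0.26 to 0.44).

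Dnmt3b, the other de novo methyltransferase, had 3 probes annotated to 1 transcript, which are not independent measurements of a sample. The brightest (A_55_P2130535) read 0.02 and 0.36 on the Aff3-/- arrays and 0.11 and 0.17 on the Aff3+/- arrays. The second (A_55_P1975903) read -1.75 and -1.43 on the Aff3-/- arrays and -1.60 and -1.50 on the Aff3+/- arrays. On both, the Aff3-/- arrays held the lowest and the highest reading, with the Aff3+/- arrays between them. The third (A_55_P2008874) read -2.04 and -1.68 on the Aff3-/- arrays and -2.08 and -1.76 on the Aff3+/- arrays. Differences were 0.05 ± 0.16, -0.04 ± 0.15 and 0.06 ± 0.19 in that order (SE, limma, adjusted p = 1.00 for each). The probes of Dnmt3b thus differed in sign, and each difference was smaller than its error.

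Tet2, the dioxygenase often mutated in human blood cancers, had 2 probes of 1 transcript. The brighter (A_55_P2081303) read 1.02 and 1.33 on the Aff3-/- arrays and 1.11 and 1.19 on the Aff3+/- arrays. As for Dnmt3b, the Aff3-/- arrays held both extremes, and the difference was 0.03 ± 0.15 (SE, limma, adjusted p = 1.00). The dimmer probe (A_55_P2051405) read -0.62 and -0.54 on the Aff3-/- arrays and -0.64 and -0.79 on the Aff3+/- arrays. Its genotypes did not overlap, which held for 1 of the 12 probes. Over all probes tested 19.6% did not overlap, with 8.18% higher in Aff3-/- cells and 11.4% lower. The gap between its lowest Aff3-/- and highest Aff3+/- array was narrow, and the difference was 0.13 ± 0.12 (SE, limma, adjusted p = 1.00, 95% interval -0.19 to 0.46). The other Tet2 probe did not share the separation.

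Tet3, the third dioxygenase, had 3 probes of 1 transcript that behaved differently from each other. The brightest (A_55_P2175260) read -2.34 and -2.30 on the Aff3-/- arrays and -2.31 and -2.30 on the Aff3+/- arrays. Its range over the 4 arrays was 0.04, smaller than that of all but 0.386% of the probes tested, where the median range was 0.30. The difference was -0.01 ± 0.11 (SE, limma, adjusted p = 1.00), and the interval from -0.30 to 0.28 was the narrowest of the 12. The second probe (A_52_P491273) read -4.56 and -4.77 on the Aff3-/- arrays and -4.21 and -4.93 on the Aff3+/- arrays. The third (A_51_P199339) read -5.60 and -5.75 on the Aff3-/- arrays and -5.16 and -5.97 on the Aff3+/- arrays. On these dim probes the Aff3+/- arrays held both extremes, with ranges of 0.72 and 0.81. Differences were -0.09 ± 0.27 and -0.11 ± 0.29 (SE, limma, adjusted p = 1.00 for each). With normexp background correction they turned to 0.20 and 0.22. The third probe had at most 35.7 intensity units on an array, and the scanner software gave it an error of up to 17.9% of the signal, against 10.0% for Dnmt1.

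**Figure D1:**
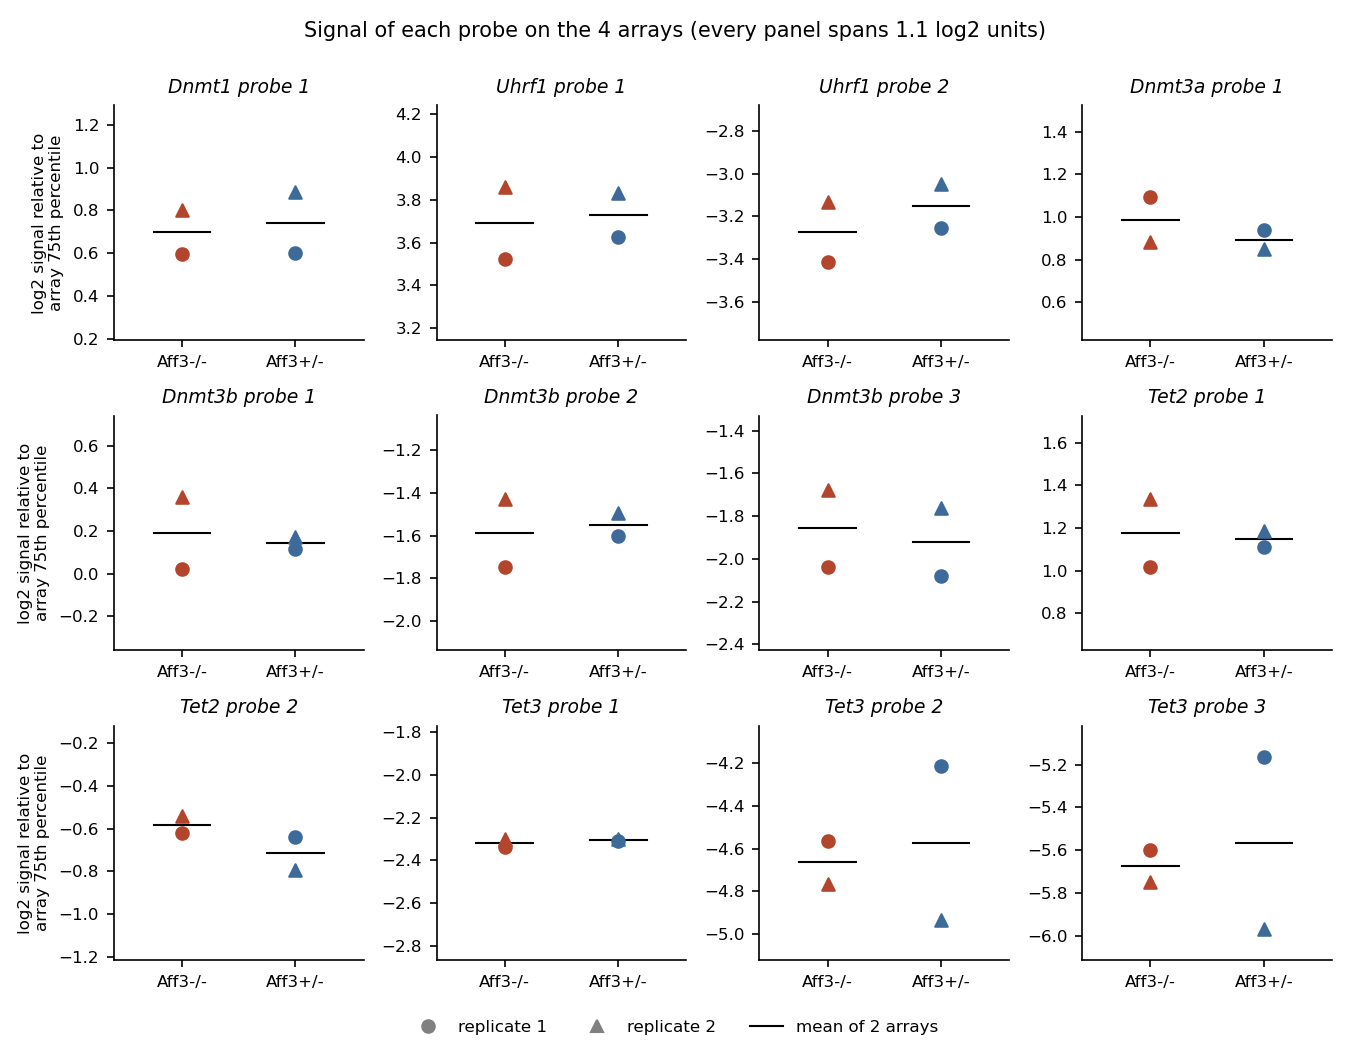
Signal of each of the 12 probes on every array, in log2 units after subtraction of that array's 75th percentile, with Aff3-/- left of Aff3+/- (circles replicate 1, triangles replicate 2, lines the mean of 2 arrays). Genotypes overlap on 11 of the 12 probes, the dimmer Tet2 probe being the exception, and the 2 dim Tet3 probes spread widest.

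Across the 12 probes the log2 differences ran from -0.12 to 0.13, with a median of -0.02, beside a median of -0.01 over all probes tested. Of the 12, 5 were above 0 and 7 below, and 7 turned sign with normexp background correction and 1 with quantile normalization. For all 12 probes, the wider of the 2 gaps between replicates of 1 genotype was larger than the difference between genotypes. The share over all probes was not computed. A gap between single arrays tends to exceed a difference of 2-array means, so the count marks nothing particular to the members. The intervals ran from -0.88 at the lowest bound to 0.66 at the highest, both for the dimmest Tet3 probe. Differences inside an interval remain compatible with these arrays, so the p-values do not show that the genotypes are alike.

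**Figure D2:**
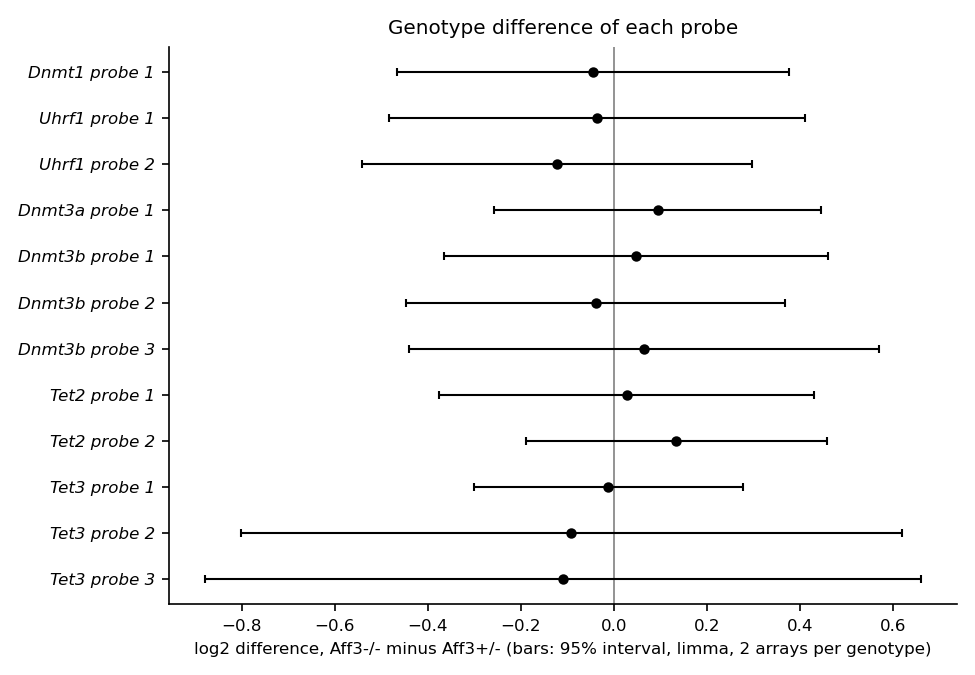
The log2 difference of Aff3-/- minus Aff3+/- for each probe, with its 95% interval from limma (2 arrays per genotype). Every interval includes 0, the bounds reach from -0.88 to 0.66, and 7 of the 12 differences change sign with normexp background correction and 1 with quantile normalization.

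Several members varied together between the replicates. Dnmt1, both Uhrf1 probes, all 3 Dnmt3b probes, the brighter Tet2 probe and the brightest Tet3 probe were brighter on replicate 2 than on replicate 1 in each genotype, which makes 8 of 12. Over all probes 36.1% did so. Among 21 genes of S phase and proliferation, 16 did so. The 3 Dnmt3b probes share 1 transcript, and the brightest Tet3 probe differed between replicates by only 0.036 (Aff3-/-) and 0.0092 (Aff3+/-). Centred on their 4-array mean, Dnmt1 read -0.12 and 0.08 on the Aff3-/- arrays and -0.12 and 0.17 on the Aff3+/- arrays. The brighter Uhrf1 probe read -0.19 and 0.15 on the Aff3-/- arrays and -0.09 and 0.12 on the Aff3+/- arrays. The median of the S phase genes read -0.12 and 0.17 on the Aff3-/- arrays and -0.13 and 0.08 on the Aff3+/- arrays. These genes thus shared a lower replicate 1 in each genotype, at 4 points on the same arrays. The full order differed, with the highest reading on Aff3+/- replicate 2 for Dnmt1 and on Aff3-/- replicate 2 for Uhrf1 and the S phase median. The part of proliferation in the shared pattern was not tested. Dnmt3a ran otherwise, with 0.15 and -0.06 on the Aff3-/- arrays and -0.0026 and -0.09 on the Aff3+/- arrays. The E2F letters searched above were present in 10 of the 17 S phase genes that have a promoter window, and in 9.01% of all genes. They were also present in 7 of 15 germline genes and 4 of 12 imprinted genes.

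**Figure D3:**
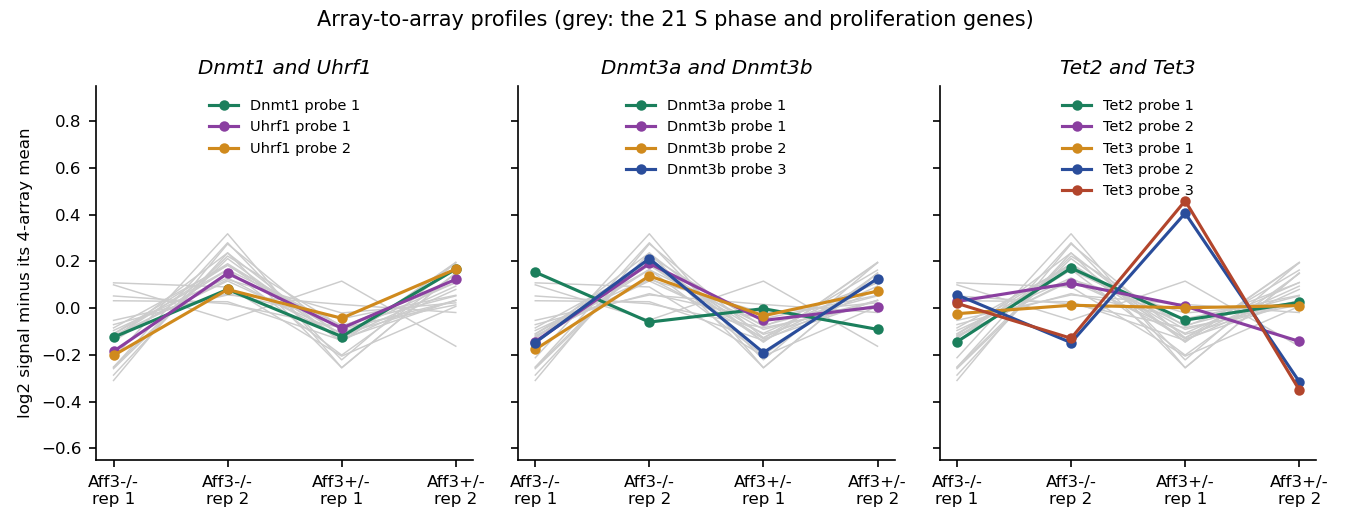
Log2 signal of each probe minus its 4-array mean, with Aff3-/- arrays left of Aff3+/- arrays, beside the 21 S phase and proliferation genes in grey. Dnmt1, Uhrf1, Dnmt3b and the brighter Tet2 probe are lower on replicate 1 than on replicate 2 in each genotype, whereas Dnmt3a and the dim Tet3 probes are not.

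Of the member genes, Dnmt3b had the widest 4-array range on its brightest probe (0.33), by less than 0.001 over Uhrf1. The named genes closest to its centred profile, by Euclidean distance over 4 arrays among 13413 candidates, were Fastkd5 (0.011), Rbm15b (0.018), Tet2 (0.027), Smad2 (0.028) and Ccdc115 (0.032). The median distance of all candidates was 0.32. Tet2 thus held rank 3, on its brighter probe, while Uhrf1 ranked 1299 and Dnmt3a 8777. With 4 arrays such a ranking is a description.

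Genes that work with the members were taken from 10 lists of 118 genes, of which 98 were tested, each by its brightest probe. None passed the adjusted threshold (limma), and 4 (4.08%) had an unadjusted p under 0.05, against 1.97% of all probes. Among the 4, Grb10 and Nap1l5 passed the filter on dim probes only through the genotype where they were brighter. The share of 4.08% is therefore no support for a change in these lists. Of the 98, 10 were higher in Aff3-/- cells without overlap and 7 were lower without overlap, together 17.3%, against 19.6% of all probes. Nap1l5 is among the 10 and Grb10 among the 7. List medians lay between -0.05 and 0.08.

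Of 8 maintenance partners 6 were above 0, with a median of 0.08 that ran from -0.046 to 0.20 with 1 array left out. The replication clamp Pcna read 4.85 and 5.22 on the Aff3-/- arrays and 4.83 and 5.06 on the Aff3+/- arrays, a difference of 0.09 ± 0.18 (SE). The chromatin remodeller Hells differed by 0.10 ± 0.17, the Dnmt1-associated Dmap1 by 0.07 ± 0.11 and the DNA ligase Lig1 by 0.12 ± 0.18. Of 11 de novo and silencing partners 6 were above 0 (median 0.02), with the zinc finger protein Zfp57 at 0.08 ± 0.12 and the H3K27 methyltransferase Ezh2 at 0.07 ± 0.13. Of 12 genes of methyl donor supply 8 were above 0 (median 0.03), among them the serine hydroxymethyltransferase Shmt2 at 0.23 ± 0.13 and the methionine adenosyltransferase Mat2a at 0.09 ± 0.16. Among the S phase genes (median 0.03) the thymidylate synthase Tyms was at 0.20 ± 0.13, the replication factor Gins1 at 0.10 ± 0.15 and the proliferation marker Mki67 at 0.03 ± 0.15. Dmap1, Shmt2 and Tyms were higher in Aff3-/- cells without overlap, and the other genes named with them overlapped. Every adjusted p among these genes was 1.00 (limma).

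Of 10 readers of CpG sites 6 were below 0 (median -0.0027). The methyl-CpG binding repressor Zbtb33 read 0.41 and 0.50 on the Aff3-/- arrays and 0.60 and 0.68 on the Aff3+/- arrays, a difference of -0.18 ± 0.12 (SE). Its genotypes did not overlap, whereas those of Zbtb4 (-0.14 ± 0.28) did. Of 7 tested TET partners and 2-oxoglutarate suppliers 5 were below 0 (median -0.05). The isocitrate dehydrogenase Idh1, whose product 2-oxoglutarate is a TET cosubstrate, was at -0.20 ± 0.13 without overlap, and at -0.040 with normexp background correction. The CXXC protein Cxxc5 was at -0.31 ± 0.23 with overlap, and at -0.061 without Aff3+/- replicate 1. Among 13 genes of base excision (median 0.03), Gadd45g, a stress-induced gene linked to demethylation, read 4.05 and 3.92 on the Aff3-/- arrays and 3.27 and 3.60 on the Aff3+/- arrays. This was 0.55 ± 0.16 without overlap (limma, adjusted p = 1.00). The glycosylase Mbd4 was at -0.21 ± 0.11 (limma, adjusted p = 1.00), also without overlap.

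Genes that depend on the marks themselves gave no call either. Of 16 germline genes listed as silenced by DNA methylation, 4 passed the filter on dim probes, with Sycp3 at 0.18 ± 0.34 (SE) and Taf7l at -0.05 ± 0.12. The Taf7l probe was not dim, with 3502 and 3814 intensity units on Aff3-/- arrays and 3724 and 3923 on Aff3+/- arrays. Whether this signal comes from the Taf7l transcript was not tested. Sycp3 was well above background on 1 of the 2 Aff3+/- arrays. Of 16 imprinted genes 9 were tested (median 0.03) and 3 of them had an unadjusted p under 0.05 (limma), a share that was 1.97% over all probes. Of these 3, Grb10 and Nap1l5 passed the filter on dim probes only through the genotype where they were brighter, so their count is no support for a change. Nap1l5 read -6.88 and -7.30 on the Aff3-/- arrays and -7.52 and -7.77 on the Aff3+/- arrays, where it was not well above background. The noncoding Meg3 read -6.28 and -5.71 on the Aff3-/- arrays and -5.03 and -5.02 on the Aff3+/- arrays, or -0.97 ± 0.22 (limma, adjusted p = 1.00). With normexp background correction it was -0.13. Its signal was between 17 and 42 intensity units, where the normexp offset of 50 by construction narrows a difference. Grb10, an adaptor of receptor kinases, was not well above background on either Aff3-/- array (limma, adjusted p = 1.00). Its Aff3+/- mean (-7.39) was 1.29-fold above a detection bound for the Aff3-/- arrays. That bound takes, on each Aff3-/- array, the higher of the probe's signal and the lowest signal well above background. The measured Aff3-/- mean was -8.23. The ratio of 1.29 takes no account of the spread between arrays. With normexp background correction the log2 difference of Grb10 was -0.030, smaller in size, so that ratio is no least change. Of the B cell genes known to depend on TET enzymes in mice, the costimulatory ligand gene Cd86 was at 0.15 ± 0.16 and Prdm1, the plasma cell regulator, at 0.04 ± 0.14.

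**Figure D4:**
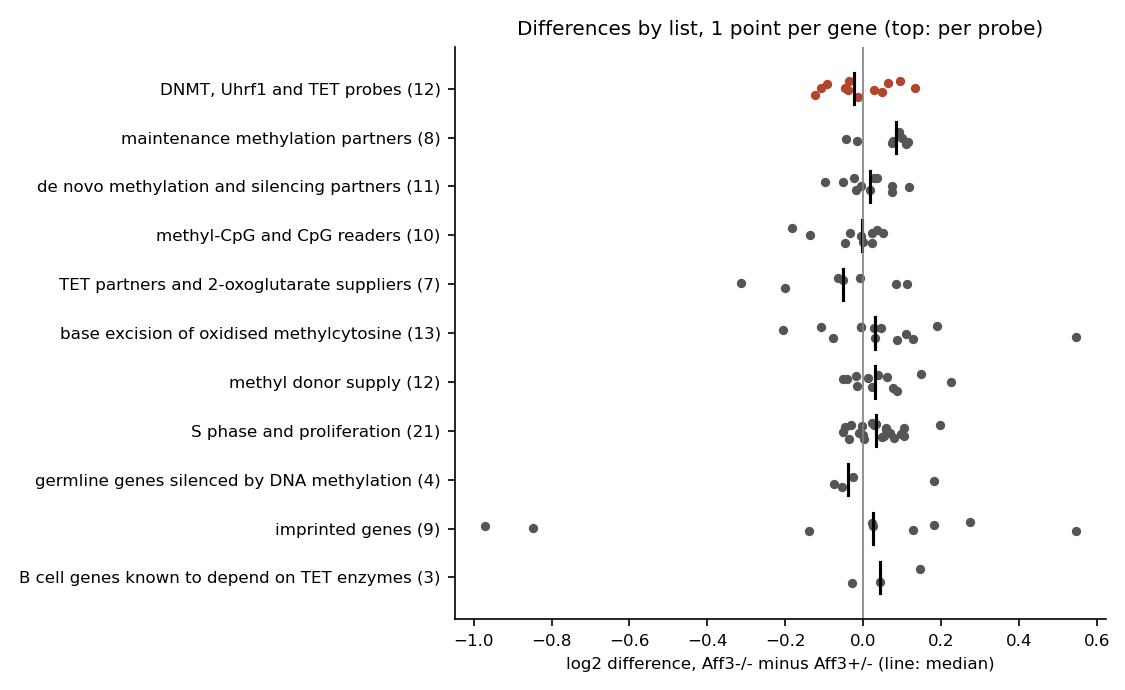
Log2 difference of Aff3-/- minus Aff3+/- for the 12 probes (top row) and for each tested gene of 10 related lists, with the number tested in parentheses and the median as a line. The 12 probes lie between -0.12 and 0.13, and the points farthest from 0 are the imprinted genes Meg3 and Grb10, which are dim and lie at -0.13 and -0.030 with normexp background correction. The normexp offset of 50 by construction narrows differences of such dim probes.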

How the data were processed

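Agilent Feature Extraction 10.7.1.1 read the arrays, per the submitters' processing notes. Per the file headers, the deposited processed signal is a background-subtracted intensity with no scaling between arrays. The authors' second deposited table holds log2 values centred on each row's median. Its scale and direction match the scanner values, and its column medians were -0.04 and 0.02 for Aff3-/- replicates 1 and 2, and 0.13 and -0.03 for Aff3+/- replicates 1 and 2. Control and outlier-flagged spots were left out, log2 signals had the array's 75th percentile subtracted, and the test took probes well above background throughout at least 1 genotype (25116). Of 39429 probes 26581 were named by RefSeq transcript, 5 by symbol and 6 by a unique synonym. The fit was limma 3.58.1 (R 4.3.3) per probe, adjusted by Benjamini-Hochberg over all probes tested and called at 0.05, and was tested on simulated data. Genes of a list named in the text are those past the threshold, otherwise the 2 of smallest p, plus Pcna, Hells and Mki67. Some items are not reported here. Members and lists were chosen with earlier results of these data known. Alternatives changed the background correction, normalization, filter, probe summary, variance trend, block and arrays. Normexp used the median signals, as the files hold no mean signal column. Its offset of 50 was added to every corrected signal, which by construction narrows the log2 differences of dim probes.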

Additional observations from a re-analysis of the deposited data

How the results depend on the processing

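No probe of any kind passed the adjusted threshold under any alternative run, and 0 of the 12 member probes had an unadjusted p under 0.05 in any fit per probe (limma). The number of all probes with an unadjusted p under 0.05 was 951 without the filter on dim probes, 275 with a variance trend, 1820 with the replicate number as a block, and 349 to 1136 with 1 array left out. The replicate block changed no call, and its smallest adjusted p among the 12 was 0.848. Same-numbered samples share only a number in the labels, with 2 pairs. Differences between arrays of replicate 2 and replicate 1 correlated at 0.565 between the genotypes over 25116 probes, which share arrays of 1 slide. With normexp, Dnmt1 turned to 0.0023, the brighter Tet2 probe to -0.0059, the Dnmt3b probes to -0.011 (first) and 0.0054 (second), the dimmer Uhrf1 probe to 0.14 and the dim Tet3 probes to 0.20 and 0.22. Normexp also gave -0.13 for Meg3, -0.030 for Grb10 and -0.040 for Idh1. With quantile normalization the brightest Tet3 probe turned to 0.0063. In all, 8 of 93 values of the 12 probes turned sign with all arrays kept and 17 of 48 with 1 left out. Many of the 93 could not turn, since changing the filter, taking the brightest probe, a variance trend or the block leaves a difference unchanged. The deposited values also left these differences nearly unchanged. The count of 8 is therefore no measure of how stable the signs are. With 1 array left out, where the lone array is assumed to vary like the others, Dnmt1 ran from -0.19 to 0.099, Uhrf1 from -0.20 to 0.13 and -0.26 to 0.018, and Dnmt3a from -0.013 to 0.20. The Dnmt3b probes ran from -0.12 to 0.21, -0.20 to 0.12 and -0.12 to 0.24. Tet2 ran from -0.13 to 0.19 on its brighter probe and 0.059 to 0.21 on the other, and Tet3 from -0.030 to 0.0061, -0.45 to 0.27 and -0.51 to 0.30. Among the other named genes, the ranges were 0.034 to 0.12 for Dmap1, 0.13 to 0.32 for Shmt2, 0.092 to 0.30 for Tyms, 0.39 to 0.71 for Gadd45g, -0.25 to -0.16 for Mbd4, -0.23 to -0.14 for Zbtb33, -0.30 to -0.096 for Idh1, -0.56 to -0.061 for Cxxc5, -1.25 to -0.69 for Meg3, -0.97 to -0.72 for Grb10, -0.089 to 0.27 for Pcna, -0.050 to 0.25 for Hells, -0.080 to 0.31 for Lig1, -0.0020 to 0.15 for Zfp57, -0.025 to 0.17 for Ezh2, -0.46 to 0.18 for Zbtb4, -0.064 to 0.24 for Mat2a, -0.079 to 0.15 for Mki67, -0.036 to 0.23 for Gins1, -0.31 to 0.67 for Sycp3, -0.13 to 0.026 for Taf7l, -0.016 to 0.31 for Cd86 and -0.083 to 0.17 for Prdm1. List medians ran -0.046 to 0.20 for maintenance methylation partners, -0.057 to 0.033 for methyl-CpG and CpG readers, -0.085 to 0.19 for S phase and proliferation, -0.025 to 0.10 for de novo methylation and silencing partners, -0.070 to -0.052 for TET partners and 2-oxoglutarate suppliers, -0.0091 to 0.086 for base excision of oxidised methylcytosine, -0.053 to 0.080 for methyl donor supply, -0.11 to 0.10 for germline genes silenced by DNA methylation, -0.017 to 0.16 for imprinted genes and -0.016 to 0.31 for B cell genes known to depend on TET enzymes. The median of the TET partners was -0.028 with normexp and that of the germline genes 0.057. Normexp adds an offset of 50, which by construction narrows the differences of dim probes. Its part in these changes, and any other cause, was not tested. Over the deposited values base excision stood at -0.0060 and imprinted genes at -0.081. That table holds only probes lower on Aff3-/- replicate 1 than on Aff3+/- replicate 1, which by construction lowers such medians. The number of arrays limits the members' precision, and for 2 Tet3 probes so does a low signal over background.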

Other observations

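The authors' deposited table of log2 values covers 25320 of the gene probes, and in every 1 of its 25372 rows the value of Aff3-/- replicate 1 is below that of Aff3+/- replicate 1. Of the 14104 gene probes absent from it, 0 have a scanner value for Aff3-/- replicate 1 below that of Aff3+/- replicate 1. The second pair shows no such pattern, with Aff3-/- replicate 2 below Aff3+/- replicate 2 in 39.4% of rows. Given the first pair, no row can have both Aff3-/- arrays above both Aff3+/- arrays. The table as used here thus holds only probes that are lower in Aff3-/- replicate 1 than in Aff3+/- replicate 1, and counts or medians of differences taken over it are not comparable with those over the scanner files. The 3 member probes absent from it are Dnmt3a, the dimmer Tet2 probe and the dimmest Dnmt3b probe, and each read higher on Aff3-/- replicate 1 than on Aff3+/- replicate 1. It holds the other 9.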
